A study of Homo sapiens with 12 samples.

Results

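The 10 genes described here are YAP1, TEAD1 and 8 genes known as their targets, namely CYR61, CTGF, ANKRD1, AXL, LATS2, AMOTL1, AMOTL2 and AJUBA. They were chosen by name and matched by Ensembl identifier, and they are 10 of the 58051 genes in the count tables. CYR61 and CTGF are the earlier symbols of CCN1 and CCN2. All 10 passed the filter on low counts and were tested among 27915 genes.

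YAP is a transcriptional coactivator without a DNA-binding domain of its own, and it reaches its target genes through the TEAD transcription factors. The Hippo kinases, which end in LATS1 and LATS2, phosphorylate YAP and hold it in the cytoplasm, while serum lipids and actin filaments favour its entry into the nucleus. Several targets feed back on the pathway, among them the kinase LATS2 and the angiomotin proteins, which bind YAP. Many of the same promoters also respond to serum through SRF and AP-1, so a change in a target gene is not a measure of YAP alone.

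Counts came from RNA-seq of HCT116, a human colon carcinoma line. Cells received siRNA against PFDN2 (siPFDN2), against PFDN5 (siPFDN5) or a control siRNA (siControl) for 24 h and were then kept without serum for 48 h. RNA was taken either at that point or 90 min after serum was given back. Each of the 6 groups held 2 libraries, and every group had been transfected and starved. The products of PFDN2 and PFDN5 are part of prefoldin, a chaperone that hands newly made actin and tubulin to the chaperonin TRiC. The labels do not say that the 2 libraries of a group came from separate cultures, so p-values measure only the spread between these libraries, which may be technical. In bulk RNA, fewer cells with a transcript and less of it per cell cannot be told apart.

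The libraries held 59784425 to 136504590 counts over gene bodies. In siPFDN2, PFDN2 stood at 70.9% of its siControl mean before serum and at 50.8% after it. In siPFDN5, PFDN5 stood at 58.4% before serum but at 95.9% where the labels read siPFDN5 after serum, so each direction drawn from that group rests on a label that its target gene does not bear out. Replicate 2 of siPFDN2 before serum stood apart from the other libraries. Its deviation from the mean library followed the GC content of the genes (Spearman 0.81 across genes), and the SD of the log2 difference between the replicates of its group was 0.68, against 0.12 to 0.30 in the other 5 groups. Of 7 epithelial markers, 6 were at 10 CPM or more in every library, and their sum ran from 1453 to 2393 CPM. The fibroblast markers summed to 4.02 to 15.9 CPM with 4 of 5 below 1 CPM throughout, the endothelial markers to 1.29 to 2.37 CPM with 2 of 3 below 1 CPM, and the immune markers to 2.69 to 4.52 CPM with 3 of 4 below 1 CPM. None of these markers was at 0 in all libraries.

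Before serum the coactivator and its partner were the most abundant of the 10 transcripts per length. In siControl, YAP1 had a mean of 27.1 FPKM over its exons (27.0 to 27.1, n = 2) and TEAD1 of 21.7 (20.9 to 22.6). AXL followed at 13.4 FPKM, AMOTL1 at 7.35, AMOTL2 at 6.49 and AJUBA at 4.89. LATS2 at 2.68 FPKM and CYR61 at 2.21 came next, then CTGF at 0.79 and ANKRD1 at 0.035. AMOTL1 (6.70 to 8.0) and AMOTL2 (6.29 to 6.69) were the neighbours whose ranges came closest, and no pair of neighbours in this order overlapped.

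After serum in siControl the order of levels per length began with CYR61 at 194 FPKM and CTGF at 64.2, the genes that had been eighth and ninth. YAP1 at 28.6 FPKM, AMOTL2 at 23.9 and TEAD1 at 22 came next. AXL followed at 14.8 FPKM, LATS2 at 9.94, AMOTL1 at 7.53 and AJUBA at 5.02, and ANKRD1 remained lowest at 0.48. The ranges of neighbours in this order did not overlap.

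CYR61, CTGF, ANKRD1, AMOTL2 and LATS2 rose 90 min after serum in siControl, in siPFDN2 and in the libraries labelled siPFDN5. A gene was called when its Benjamini-Hochberg adjusted p in edgeR's quasi-likelihood test was under 0.05 across all tested genes. These were 5 of the 10 genes in each siRNA, where 2.47% of all tested genes were called higher in siControl, 2.06% in siPFDN2 and 5.72% in siPFDN5. All 5 were called higher in each of the 3 siRNAs, as were 340 genes in all, or 1.22%. The median log2 fold change of the 10 genes was 1.08 in siControl, 0.85 in siPFDN2 and 0.83 in siPFDN5, beside 0.01, -0.02 and -0.03 over all tested genes.

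**Figure D1:**
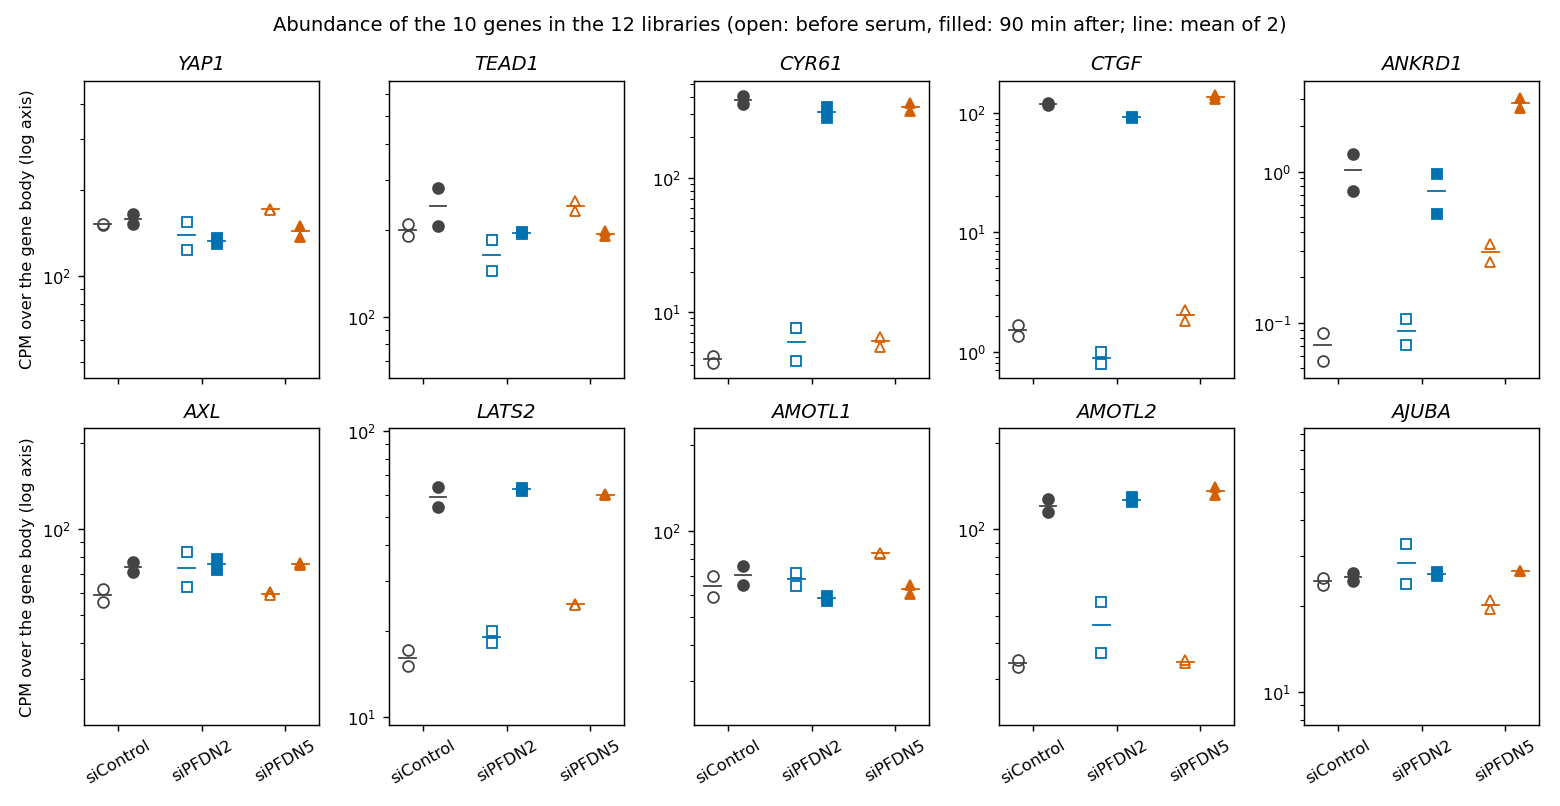
Abundance of the 10 genes as CPM over the gene body, on a log axis whose limits differ between panels, with 1 point per library, open before serum and filled 90 min after it, and a short line at the mean of 2. CYR61, CTGF, ANKRD1, AMOTL2 and LATS2 are higher in every library after serum than in any library before it, while the points of the other 5 genes overlap between the times.

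YAP1 itself, on chromosome 11 (ENSG00000137693, 102110461 to 102233423, plus strand, GRCh38), stayed between 123 and 172 CPM in all libraries. With the control siRNA its level was 151 and 152 CPM in starved cells and 165 and 152 CPM 90 min after serum, where CPM relates the count over the gene body to the scaled library total. In siPFDN2 it was at 155 and 123 CPM before and 130 and 136 CPM after, and in siPFDN5 at 172 and 170 CPM before and 137 and 150 CPM after. The times overlapped in siPFDN2, and the libraries after serum were lower in siPFDN5. In siControl they were higher, but the nearest libraries of the 2 times were at 152.2 and 152.3 CPM. The log2 fold change was 0.07 (SE 0.14) in siControl, -0.07 (SE 0.14) in siPFDN2 and -0.25 (SE 0.14) in siPFDN5, with adjusted p of 0.94, 0.78 and 0.26.

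TEAD1, on chromosome 11 (ENSG00000187079, 12674591 to 12944483, plus strand), encodes one of the TEAD factors that carry YAP on DNA. Its siControl levels were 192 and 211 CPM without serum and 280 and 207 CPM with it. The siPFDN2 levels were 185 and 145 CPM without serum and 198 and 194 CPM with it, and those of siPFDN5 were 254 and 235 CPM before and 191 and 199 CPM after. The siControl libraries overlapped between the times, the siPFDN2 libraries were higher after serum and those of siPFDN5 lower. None of the log2 fold changes of 0.27, 0.25 and -0.33 (SE 0.17 each) was called. Over exons alone the value in siControl was 0.02 (SE 0.15).

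CYR61, on chromosome 1 (ENSG00000142871, 85580761 to 85583962, plus strand), encodes a secreted matrix protein that binds integrins. The starved siControl libraries held 4.72 and 4.19 CPM of it and the serum-treated ones 404 and 355 CPM. In siPFDN2 it was at 4.35 and 7.61 CPM before and 281 and 336 CPM after, and in siPFDN5 at 5.51 and 6.54 CPM before and 316 and 358 CPM after. Every library after serum lay far above every library before it, and the higher of the siPFDN2 values before serum came from the replicate that stood apart. CYR61 rose 85.2-fold in siControl (log2 6.41, SE 0.29, adjusted p = 3.4e-07), 51.5-fold in siPFDN2 (log2 5.69, SE 0.28, adjusted p = 8.0e-07) and 55.9-fold in siPFDN5 (log2 5.80, SE 0.28, adjusted p = 7.6e-07). By log2 fold change it ranked 8th, 12th and 11th of the 27915 genes. Without the replicate that stood apart its log2 fold change in siPFDN2 was 6.15.

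CTGF, on chromosome 6 (ENSG00000118523, 131948176 to 131951373, minus strand), encodes a related secreted protein and is a widely used readout of YAP. With the control siRNA its level was 1.67 and 1.36 CPM in starved cells and 122 and 118 CPM 90 min after serum. In siPFDN2 the starved libraries held 0.99 and 0.78 CPM and the others 91.0 and 93.5 CPM, and in siPFDN5 it was at 1.80 and 2.22 CPM before and 131 and 143 CPM after. The siPFDN2 libraries were the lowest at both times and those labelled siPFDN5 the highest. CTGF rose 79.2-fold in siControl (log2 6.31, SE 0.20), 104-fold in siPFDN2 (log2 6.70, SE 0.21) and 68.1-fold in siPFDN5 (log2 6.09, SE 0.20), with adjusted p from 2.6e-08 to 3.9e-08. An antisense gene, AL133346.1, overlaps it, and the counts do not use strand.

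The 250 bases before the CTGF start are shown because they hold 3 copies of the TEAD motif CATTCC or its complement GGAATG, which only 29 of 35116 promoters in the table (0.0826%) do. The sequence is that of RefSeq on GRCh38.p14, chr6:131951373-131951622, minus strand, 5′ to 3′ towards the start, with the GGAATG matches in capitals.
CTGF: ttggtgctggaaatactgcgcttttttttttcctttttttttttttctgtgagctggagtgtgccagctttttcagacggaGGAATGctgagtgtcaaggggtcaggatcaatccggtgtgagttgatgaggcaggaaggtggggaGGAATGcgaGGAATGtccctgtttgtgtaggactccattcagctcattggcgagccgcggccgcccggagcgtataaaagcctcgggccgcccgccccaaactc
Promoters of 8 of the 10 genes were matched, with the first listed start used where a gene has several. Over both strands, 11.9% of all promoters held at least 1 TEAD motif in these 250 bases and 0.94% held 2 or more. Matches stood in 3 of the 8, beginning at positions -169, -104 and -95 in CTGF, -220 and -128 in ANKRD1 and -162 in YAP1, where -1 is the base before the start. The same window of AXL, LATS2, AMOTL1, AMOTL2 and AJUBA does not hold these letters, which says nothing about TEAD binding elsewhere. Each of the following lines gives 30 bases around a match in ANKRD1 (minus strand) or YAP1 (plus strand), with the TEAD match in capitals in the first, second and last, and the AP-1 match in capitals in the remaining one. The second and the AP-1 window lie at least partly inside ANKRD1 as Ensembl annotates it.
ANKRD1 chr10:90921290-90921319: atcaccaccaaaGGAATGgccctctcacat
ANKRD1 chr10:90921198-90921227: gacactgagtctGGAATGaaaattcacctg
ANKRD1 chr10:90921264-90921293: acatttcttccTGATTCAcatattcagcag
YAP1 chr11:102110273-102110302: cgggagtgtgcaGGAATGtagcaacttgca
The AP-1 motif was searched as TGANTCA, which stands in 6.57% of promoters and, among the 8, only in ANKRD1. The CArG box, the SRF motif, stands in 1.16% of promoters and in 0 of the 8. A TATAAA stands in 6.80% of promoters and, among the 8, only in CTGF.

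ANKRD1, on chromosome 10 (ENSG00000148677, 90912096 to 90921276, minus strand), encodes an ankyrin repeat protein best known from muscle and is a frequent YAP readout. It was the least abundant of the 10, with 8 and 6 counts in siControl before serum (0.086 and 0.056 CPM) and 62 and 176 counts after it (0.74 and 1.31 CPM). In siPFDN2 it had 10 and 8 counts before serum and 58 and 46 after, and in siPFDN5 21 and 17 before and 217 and 225 after, or 0.33 and 0.25 CPM before and 3.05 and 2.63 CPM after. The libraries after serum were higher within each siRNA, and the siPFDN5 libraries were the highest at each time. The rise was 14.4-fold in siControl (log2 3.85, SE 0.45, adjusted p = 0.00054), 8.23-fold in siPFDN2 (log2 3.04, SE 0.44, adjusted p = 0.0037) and 9.67-fold in siPFDN5 (log2 3.27, SE 0.38, adjusted p = 0.00070). The low counts before serum make the size of these folds imprecise.

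AXL, on chromosome 19 (ENSG00000167601, 41219203 to 41261766, plus strand), encodes the receptor tyrosine kinase for GAS6. Its siControl levels were 55.8 and 61.8 CPM without serum and 70.9 and 76.6 CPM with it. In siPFDN2 it was at 62.8 and 83.3 CPM before and 78.5 and 72.2 CPM after, and in siPFDN5 at 60.1 and 58.9 CPM before and 74.8 and 76.3 CPM after. The libraries after serum were higher in siControl and siPFDN5 and overlapped in siPFDN2, where the replicate that stood apart had the highest value. The log2 fold changes of 0.33, 0.04 and 0.34 (SE 0.16 each) were not called, with adjusted p of 0.44, 0.87 and 0.16.

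Among the genes that act on the pathway, LATS2 and AMOTL2 rose and AMOTL1 and AJUBA were not called. LATS2, on chromosome 13 (ENSG00000150457, 20973032 to 21061547, minus strand), encodes a kinase that phosphorylates YAP. The starved siControl libraries held 15.1 and 17.2 CPM of it and the serum-treated ones 63.6 and 54.3 CPM. In siPFDN2 it was at 18.1 and 20.1 CPM before and 61.9 and 63.3 CPM after, and in siPFDN5 at 24.9 and 24.8 CPM before and 60.4 and 59.5 CPM after. All 6 libraries after serum fell within 54.3 to 63.6 CPM, while before serum the siPFDN5 libraries were above the other 4. LATS2 rose 3.66-fold in siControl (log2 1.87, SE 0.15), 3.27-fold in siPFDN2 (log2 1.71, SE 0.14) and 2.42-fold in siPFDN5 (log2 1.27, SE 0.14), with adjusted p of 3.0e-05, 6.5e-05 and 0.00049. An antisense gene, LATS2-AS1, lies across it.

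AMOTL2, on chromosome 3 (ENSG00000114019, 134355874 to 134375479, minus strand), encodes an angiomotin family protein that binds YAP and keeps it at cell junctions. With the control siRNA its level was 33.2 and 34.9 CPM in starved cells and 115 and 128 CPM 90 min after serum. In siPFDN2 it was at 36.9 and 55.6 CPM before and 129 and 125 CPM after, and in siPFDN5 at 34.1 and 35.0 CPM before and 131 and 141 CPM after. The libraries were alike at each time except replicate 2 of siPFDN2 before serum, which was higher than the other 5 before serum. AMOTL2 rose 3.56-fold in siControl (log2 1.83, SE 0.18), 2.75-fold in siPFDN2 (log2 1.46, SE 0.18) and 3.94-fold in siPFDN5 (log2 1.98, SE 0.19), with adjusted p of 0.00022, 0.0011 and 0.00014. Without that replicate the log2 fold change in siPFDN2 was 1.78.

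AMOTL1, the paralogue of AMOTL2 on chromosome 11 (ENSG00000166025, 94706431 to 94876753, plus strand), had siControl levels of 58.8 and 69.9 CPM without serum and 75.7 and 64.8 CPM with it. The siPFDN2 levels were 64.5 and 71.3 CPM without serum and 57.3 and 59.3 CPM with it, and those of siPFDN5 were 83.5 and 83.9 CPM before and 60.4 and 64.9 CPM after. The libraries after serum were lower in siPFDN2 and siPFDN5 and overlapped in siControl. The log2 fold changes were 0.13, -0.22 and -0.42 (SE 0.14 in the first and 0.15 in the last), with adjusted p of 0.85, 0.33 and 0.080.

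AJUBA, on chromosome 14 (ENSG00000129474, 22971174 to 22982642, minus strand), encodes a LIM protein that inhibits LATS kinases. Its siControl levels were 23.8 and 25.1 CPM without serum and 24.6 and 26.1 CPM with it. In siPFDN2 it was at 23.8 and 32.9 CPM before and 26.4 and 25.5 CPM after, and in siPFDN5 at 19.5 and 20.9 CPM before and 26.6 and 26.5 CPM after. The times overlapped in siControl and siPFDN2, and in siPFDN5 the libraries after serum were higher. The log2 fold changes of 0.05, -0.13 and 0.39 (SE 0.16 each) were not called, with adjusted p of 0.97, 0.62 and 0.13. Reads from AL132780.3, a protein-coding gene that overlaps AJUBA on the same strand, were counted for both.

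**Figure D2:**
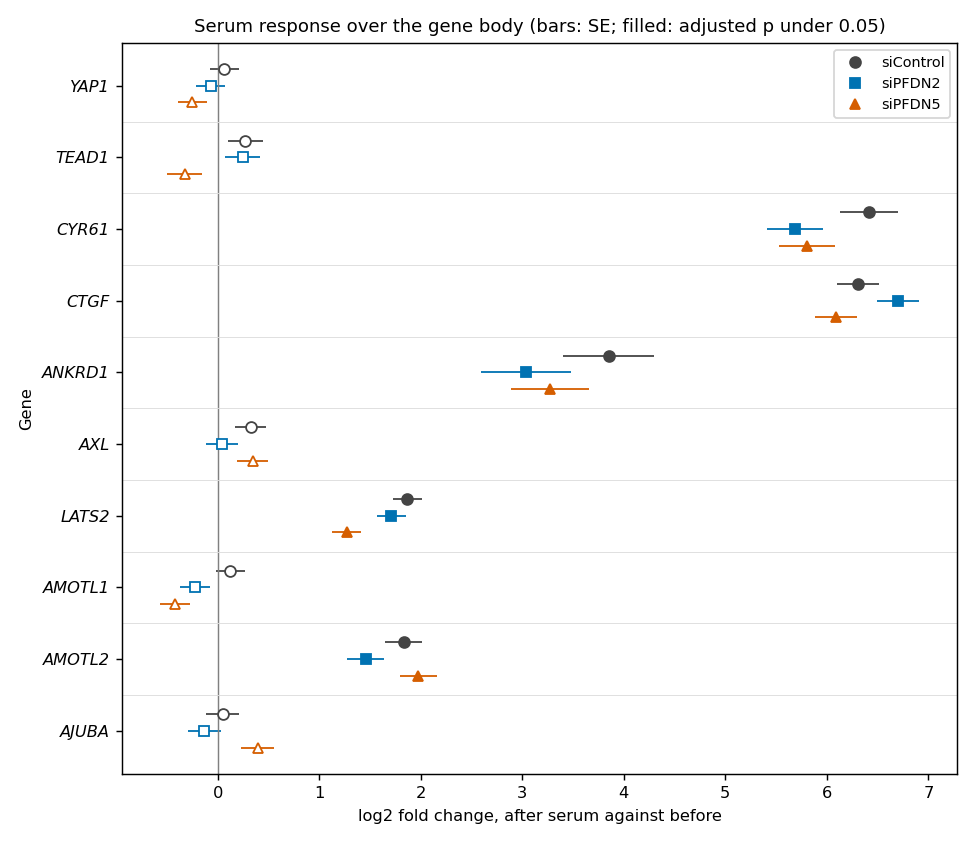
Log2 fold change after serum against before it for the 10 genes over gene bodies (x axis) in siControl (circles), siPFDN2 (squares) and siPFDN5 (triangles), with bars for the SE and filled symbols where the adjusted p was under 0.05. CYR61 and CTGF lie between 5.69 and 6.70, ANKRD1 between 3.04 and 3.85, AMOTL2 and LATS2 between 1.27 and 1.98, and the other 5 between -0.42 and 0.39.

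The 5 rises were called in siControl and siPFDN5 in each of the 22 alternative settings run, but which of the other 5 genes were called in siPFDN5 depended on the fit. Without replicate 2 of siPFDN2 before serum, whose spread enters the shared estimate of error, all 10 genes were called in siPFDN5, with AJUBA (log2 0.40) and AXL (0.35) higher and AMOTL1 (-0.41), TEAD1 (-0.32) and YAP1 (-0.24) lower. In that fit 36.3% of all tested genes were called. Leaving out replicate 1 of that group, so that the group adds no spread, also gave 10 calls, with 36% of all genes called. A fit to the 4 libraries labelled siPFDN5 called 10 beside 54.5%, and removal of the GC trend with all libraries kept called 9 beside 28.7%, all but TEAD1. AXL was also called in siControl without replicate 2 of siPFDN2 before serum, where 9.95% of all genes were, and with the GC trend removed, where 6.53% were. In siPFDN2, a fit to its own 4 libraries called 2 of the 10, CYR61 and CTGF, where 0.143% of all genes were called.

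In the reported fit, edgeR called no difference from siControl in these genes for siPFDN2 or for the libraries labelled siPFDN5. Of the 10, 0 were called before or after serum in siPFDN2 or siPFDN5, and 0 in the difference of the serum response from siControl. PFDN2 and PFDN5, the targets of the siRNAs, were not called in these comparisons either. A missing call therefore does not show that a gene was unchanged, and other edgeR settings did call some of the 10, as given below. In the reported fit the share of all genes called was 0% in both siPFDN2 comparisons and in both differences of the serum response. In siPFDN5 it was 0.00716% before serum and 0.00358% after it. At an unadjusted p under 0.05 there were 2 of the 10 in siPFDN2 before serum, beside 11.3% of all genes, and 1 after serum, beside 6.26%. There were 4 in siPFDN5 before serum, beside 12.3%, and 1 in the libraries labelled siPFDN5 after serum, beside 21.6%. The differences of the serum response had 1 for siPFDN2 and 3 for siPFDN5, beside 6.6% and 20.9%. DESeq2 called 2 in siPFDN5 before serum (ANKRD1 and LATS2, with 1.17% of all genes called), 1 after serum (ANKRD1, with 6.96%) and 0 in siPFDN2 before serum (0.0967%), in siPFDN2 after serum (0.00716%) and in the differences of the serum response (0.00716% for siPFDN2 and 6.32% for siPFDN5).

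ANKRD1 had the largest difference from siControl. It was 4.09-fold higher in siPFDN5 before serum (log2 2.03, SE 0.51, adjusted p = 0.21) and 2.74-fold higher in the libraries labelled siPFDN5 after serum (log2 1.45, SE 0.33, adjusted p = 0.073). The siPFDN5 libraries lay above both siControl libraries at each time, although PFDN5 was below siControl only before serum. The value after serum was called in 8 of 22 alternative settings and ran from 1.12 to 1.99 over them, with adjusted p from 9.4e-05 to 0.50. The serum response of ANKRD1 in siPFDN5 minus that in siControl was -0.58 (SE 0.60, adjusted p = 0.63). In siPFDN2 the difference from siControl was 0.31 (SE 0.57) before serum and -0.50 (SE 0.35) after it.

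LATS2 was 1.54-fold higher in siPFDN5 before serum (log2 0.62, SE 0.14, adjusted p = 0.19) and 1.02-fold higher after it (log2 0.02, SE 0.14). Its serum response was smaller by 0.60 in log2 (SE 0.20, adjusted p = 0.13), the lowest adjusted p of the 10 in that comparison. The difference before serum was called in 6 of 22 alternative settings, where it ran from 0.52 to 0.72 with adjusted p from 0.0043 to 1, and without replicate 2 of siPFDN2 before serum it was among 3 calls with ANKRD1 and AMOTL1. In that fit 6.96% of all genes were called. AMOTL1 was 1.3-fold higher in siPFDN5 before serum (log2 0.38, SE 0.14, adjusted p = 0.33).

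CTGF was lower in siPFDN2 than in siControl at each time in every library. The log2 difference was -0.77 (SE 0.19, unadjusted p = 0.0016, adjusted p = 0.44) before serum and -0.38 (SE 0.16, adjusted p = 0.77) after it. Without the replicate that stood apart the value before serum was -0.60 (SE 0.17). In siPFDN5 CTGF differed from siControl by 0.41 (SE 0.18) before serum and 0.19 (SE 0.16) after it. CYR61, its closest relative among the 10, did not share the direction in siPFDN2 before serum, with a difference of 0.43 (SE 0.23) that became -0.03 (SE 0.16) without that replicate.

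In siPFDN2 before serum the next differences were smaller without the replicate that stood apart. AMOTL2 was 1.36-fold above siControl (log2 0.44, SE 0.18) and AXL 1.24-fold above (log2 0.31, SE 0.16), and without replicate 2 these differences were 0.12 (SE 0.10) and 0.09 (SE 0.10). The GC content of AMOTL2 is 56.7% and that of AXL 53.9%, while that of TEAD1 is 41.3% and that of YAP1 43.5%. Replicate 2 was the higher of the pair for AMOTL2, AXL, AJUBA, LATS2, CYR61 and AMOTL1 and the lower for TEAD1, YAP1, ANKRD1 and CTGF. The GC content of CTGF is 51.5%, that of CYR61 50.3% and that of AMOTL1 48.8%. In this pair CTGF had only 94 and 88 counts and ANKRD1 10 and 8, so their order is imprecise. Whether GC content accounts for these orders was not tested. With the GC trend of each library removed, the differences were 0.18 for AMOTL2, 0.14 for AXL, 0.16 for LATS2, 0.08 for AJUBA, 0.09 for AMOTL1, -0.03 for TEAD1 and 0.06 for YAP1. Those of CTGF at -0.85, CYR61 at 0.39 and ANKRD1 at 0.50 were the farthest from 0.

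**Figure D3:**
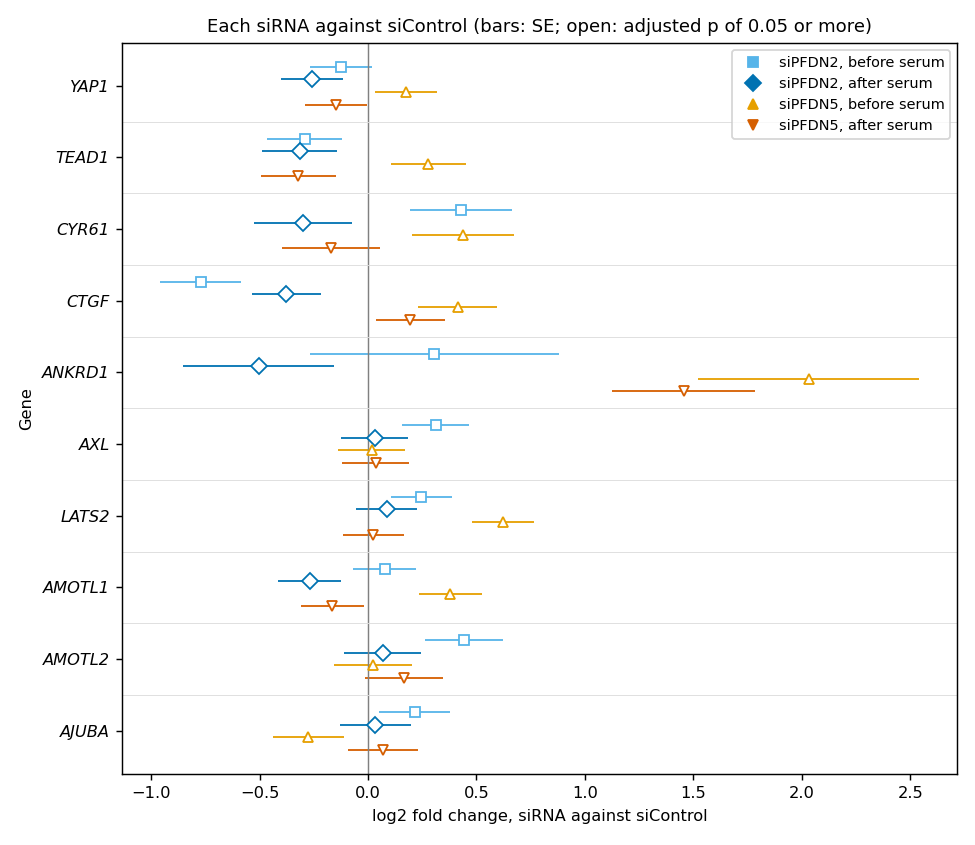
Log2 fold change of siPFDN2 and siPFDN5 against siControl (x axis) for the 10 genes before serum and after it, with bars for the SE. All symbols are open because no adjusted p was under 0.05, and ANKRD1 in siPFDN5 lies farthest from 0, at 2.03 before serum and 1.45 after it.

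The intronic part of the counts, which comes mainly from unspliced transcripts, also rose in genes whose exons were not called, with AXL among them in each of the 3 siRNAs. Exons were called in 5 of the 10 in each siRNA. Intronic counts, the part of a gene-body count outside the exons, made up 14.8% to 25.9% of a library, and 19731 genes were tested. This share was highest in siPFDN5 before serum, at 22.8% and 25.9%, and was 17.2% and 14.8% in the libraries labelled siPFDN5 after serum. In siPFDN2 it was 16.2% and 16.1% before serum and 20.9% and 19.3% after it, and in siControl the times overlapped. Whether these shifts of whole libraries bear on the intronic values of single genes was not tested. In siControl 9 of the 10 were called higher in their introns, all but YAP1, beside 6.25% of all tested genes. In siPFDN2 there were 5 (CYR61, CTGF, AMOTL2, LATS2 and AXL), beside 5.45%, and in siPFDN5 6 (CYR61, CTGF, ANKRD1, AMOTL2, AJUBA and AXL), beside 13.3%. YAP1 was called lower in the introns of siPFDN5, as were 14.5% of all genes. Replicate 1 of siControl after serum was high in the introns of the longest genes, and without it the count in siControl was 6, beside 4.35% of all genes called in either direction, with AMOTL1, AJUBA and TEAD1 no longer called.

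Of the genes whose introns responded more than their exons, AXL had the widest gap. Its introns, scaled to the intronic total, gave 16.3 and 12.6 CPM in the starved siControl libraries and 68.5 and 52.3 CPM in the serum-treated ones. They were at 14.5 and 23.9 CPM in starved siPFDN2 cells and 59.1 and 47.1 CPM after, and in siPFDN5 at 17 and 16.1 CPM before and 36.5 and 40.5 CPM after. Every library after serum was above every library before it. Introns rose by 2.06 in siControl (log2, SE 0.27, adjusted p = 8.9e-05), by 1.46 in siPFDN2 (SE 0.26, adjusted p = 0.0019) and by 1.22 in siPFDN5 (SE 0.27, adjusted p = 0.0049), while over exons the log2 fold changes were 0.15, -0.08 and 0.20 (SE 0.16 each) and were not called. An antisense gene, AC011510.1, lies inside AXL and its part in the intronic counts was not tested.

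AJUBA had few intronic counts, 74 and 52 in siControl before serum and 127 and 174 after it. In siPFDN2 they were 67 and 116 before serum and 81 and 106 after, and in siPFDN5 41 and 55 before and 82 and 71 after. Scaled to the intronic total, the libraries after serum were above those before it within each siRNA. Introns rose by 1.01 in siControl (log2, SE 0.29, adjusted p = 0.035) and by 1.11 in siPFDN5 (SE 0.30, adjusted p = 0.015), and in siPFDN2 the value of 0.73 (SE 0.29, adjusted p = 0.11) was not called. Of 17 alternative settings, 9 called the rise in siControl and 14 that in siPFDN5. Replicate 1 of siControl after serum was at 6.29 intronic CPM and replicate 2 at 7.41, and without replicate 1 the siControl value was 1.13. The part of the overlapping AL132780.3 in the AJUBA intronic counts was not tested.

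TEAD1 is the longest of the 10, with 269893 bases between its ends, and 1 library decided its intronic value in siControl. Its introns had 1617 and 2342 counts in siControl before serum and 8403 and 3662 after it, which made up 9.08% and 10.4% of its gene-body count before and 35.7% and 13.1% after. They had 1640 and 2613 counts in siPFDN2 before serum and 2028 and 2701 after, and 3316 and 2300 in siPFDN5 before and 1226 and 1480 after. Scaled to the intronic total, the libraries after serum were above those before it in siControl and siPFDN2 and below them in siPFDN5. TEAD1 introns rose by 1.45 in siControl (log2, SE 0.35, adjusted p = 0.015), while the siPFDN2 value of 0.85 (SE 0.35, adjusted p = 0.12) and the siPFDN5 value of -0.64 (SE 0.35, adjusted p = 0.18) were not called. Without replicate 1 of siControl after serum it was 0.58 (SE 0.25) in siControl and was not called.

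AMOTL1 followed the same order, with intronic values of 1.01 in siControl (log2, SE 0.25, adjusted p = 0.018), of 0.54 in siPFDN2 (SE 0.26, adjusted p = 0.17) and of -0.49 in siPFDN5 (SE 0.26, adjusted p = 0.16). Its introns were at 21.6 and 24.5 CPM in starved siControl cells and 59.0 and 33.9 CPM with serum. Without the first of these libraries after serum the value was 0.55 (SE 0.22). YAP1 introns were at 64.5 and 73.4 CPM before and 90.9 and 49.8 CPM after serum in siControl, and at 112 and 92.1 CPM before and 41.5 and 43.0 CPM after in siPFDN5. That fall in the libraries labelled siPFDN5 was -1.27 in log2 (SE 0.27, adjusted p = 0.0043).

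The genes with the largest serum response were at the other end. CYR61 had 4 and 5 intronic counts in siControl before serum and 144 and 213 after it, and CTGF 0 and 2 before and 29 and 33 after. Introns made up 0.42% and 0.45% of the CYR61 count after serum, and 0.28% and 0.21% of that of CTGF. The intronic log2 fold change of CYR61 was 5.04 (SE 0.39) in siControl, 4.67 (SE 0.36) in siPFDN2 and 5.44 (SE 0.39) in siPFDN5, with adjusted p from 3.2e-07 to 4.8e-07. That of CTGF was 4.56 (SE 0.70), 4.30 (SE 0.75) and 4.08 (SE 0.68), with adjusted p from 0.00042 to 0.0015.

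AMOTL2 rose alike in both kinds of count, by 1.46 (SE 0.25), 1.36 (SE 0.25) and 1.86 (SE 0.26) in introns beside 1.88, 1.46 and 1.89 in exons. LATS2 introns rose by 1.70 (SE 0.25) in siControl and 1.49 (SE 0.25) in siPFDN2 but were not called in siPFDN5, at 0.35 (SE 0.24, adjusted p = 0.28), where the exons rose by 1.52 (SE 0.13). LATS2 introns in siPFDN5 were at 35.4 and 36.5 CPM before serum and 43.0 and 48.8 CPM after it, and in siControl at 19.9 and 22.5 CPM before and 82.9 and 55.2 CPM after. The siPFDN5 libraries before serum were thus the highest of the 6 at that time. ANKRD1 introns had at most 40 counts in any library, and their log2 fold changes of 3.91 (SE 0.68) in siControl and 1.82 (SE 0.60) in siPFDN5 were called.

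**Figure D4:**
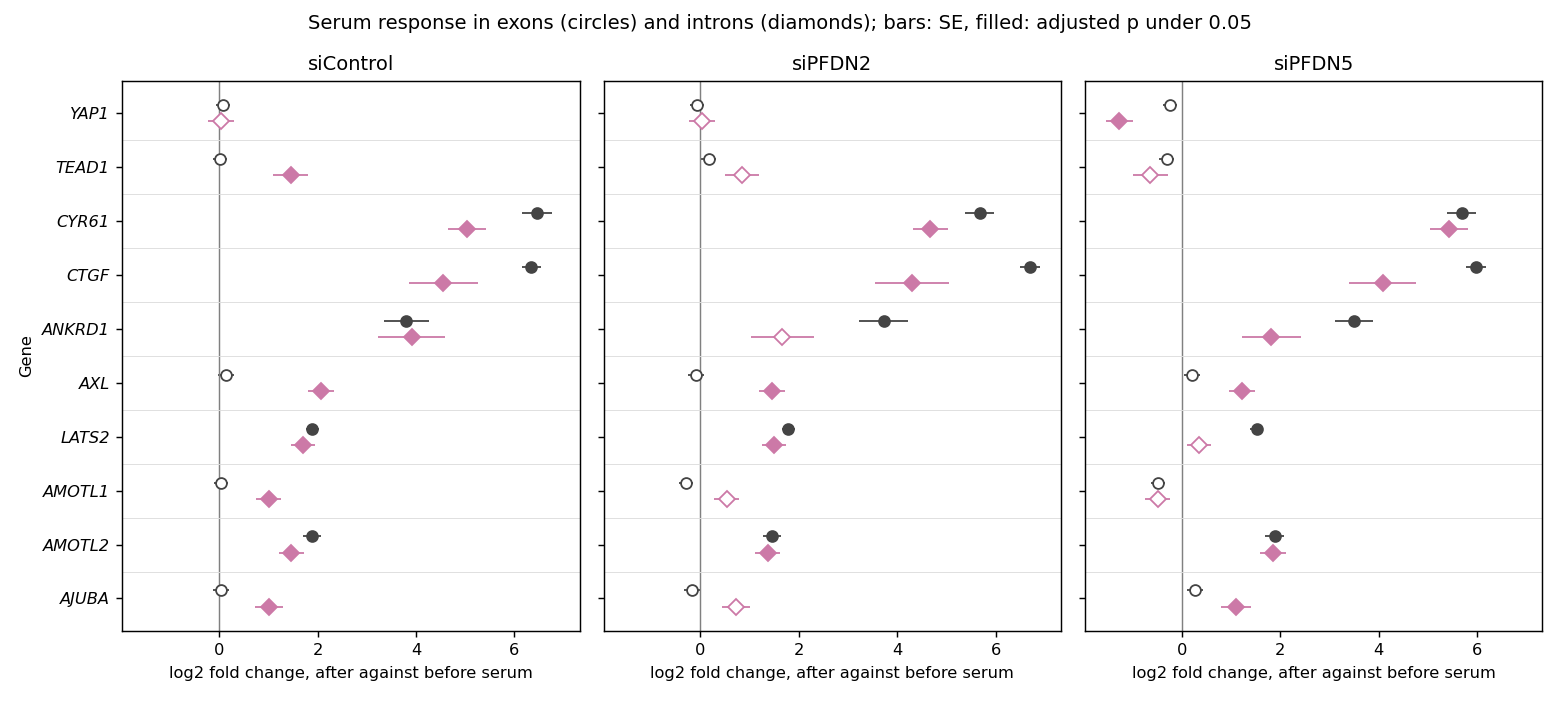
Log2 fold change after serum against before it (x axis) in exons (circles) and introns (diamonds) of the 10 genes, with a panel for each siRNA, bars for the SE and filled symbols where the adjusted p was under 0.05. In siControl the introns of AXL, TEAD1, AMOTL1 and AJUBA lie at 2.06, 1.45, 1.01 and 1.01 while their exons lie near 0, and in siPFDN5 the introns of YAP1 lie at -1.27.

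Averaged over the 3 siRNAs, the intronic response minus the exonic response was called in 5 of the 10, where 21.7% of the 17390 genes tested were called. It was positive for AXL (log2 1.52, SE 0.14, adjusted p = 3.1e-06), AJUBA (0.93, SE 0.16, adjusted p = 0.00099), AMOTL1 (0.60, SE 0.13, adjusted p = 0.0052) and TEAD1 (0.57, SE 0.19, adjusted p = 0.044). It was negative for LATS2 (-0.54, SE 0.12, adjusted p = 0.0059). LATS2 introns and exons were farthest apart in siPFDN5, whose label after serum is not borne out by its target gene. The values of AXL, AJUBA and LATS2 were called in all alternative settings run, that of AMOTL1 in 15 of 16, and that of TEAD1 in 4 of 16. For CTGF the value was -1.93 (SE 0.67, adjusted p = 0.051) and for CYR61 -0.84 (SE 0.32, adjusted p = 0.068).

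Among further genes known as TEAD targets a few rose and most were not called. Of 16 such genes, 15 were tested and FOXF2 was not. In siControl 5 were called higher, beside 2.47% of all genes, and 0 lower, with a median log2 fold change of 0.66. In siPFDN2 4 were called higher, beside 2.06%, with a median of 0.56. In siPFDN5 4 were called higher, beside 5.72%, and 1 lower, beside 6.48%, with a median of -0.10. Without replicate 1 of siControl after serum 3 were called in siControl (F3, GADD45A and NUAK2), where 1.29% of all genes were. Without replicate 2 of siPFDN2 before serum 6 were called higher and 2 lower in siPFDN5, where 36.3% of all genes were called in either direction.

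NUAK2, a kinase of the AMPK family, had siControl levels of 3.74 and 3.01 CPM in starved cells and 61.3 and 50.1 CPM after serum. It rose by 4.05 (SE 0.28) in siControl, 3.49 (SE 0.27) in siPFDN2 and 3.42 (SE 0.28) in siPFDN5, and the 250 bases before its start hold 2 TEAD motifs. F3, which encodes tissue factor, rose by 1.91, 1.93 and 2.09 (SE 0.22 each), and its promoter holds 2 AP-1 motifs and no TEAD motif. GADD45A, a stress-induced regulator of the cell cycle, rose by 1.88 (SE 0.16), 1.47 (SE 0.16) and 1.23 (SE 0.16). IGFBP3, a binding protein of insulin-like growth factors, rose by 1.29 (SE 0.26) in siControl and 1.70 (SE 0.28) in siPFDN2 from levels under 1 CPM.

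CRIM1 was called in siControl alone (1.01, SE 0.21, adjusted p = 0.026), where its libraries after serum were at 121 and 73.0 CPM and those before it at 43.6 and 52.4 CPM. FJX1 was called higher in siPFDN5 (1.07, SE 0.22, adjusted p = 0.018). ASAP1, which encodes a GTPase-activating protein of ARF, was called lower in siPFDN5 (-0.74, SE 0.22, adjusted p = 0.047), where it was at 80.1 and 73.5 CPM before serum and 41.4 and 50.3 CPM after it. Whether the response of these 3 genes differed between the siRNAs is covered by the difference of the serum response. In the reported fit edgeR called 0 of the 15 there. At an unadjusted p under 0.05 there were 0 in siPFDN2, beside 6.6% of all genes, and 9 in siPFDN5, beside 20.9%. DESeq2 called 0 in siPFDN2 (0.00716% of all genes) and 3 in siPFDN5 (ASAP1, CRIM1 and RBMS3, all lower, beside 6.32%). Without replicate 2 of siPFDN2 before serum edgeR called 8 in siPFDN5, 7 of them lower, where 21.8% of all genes were called.

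**Figure D5:**
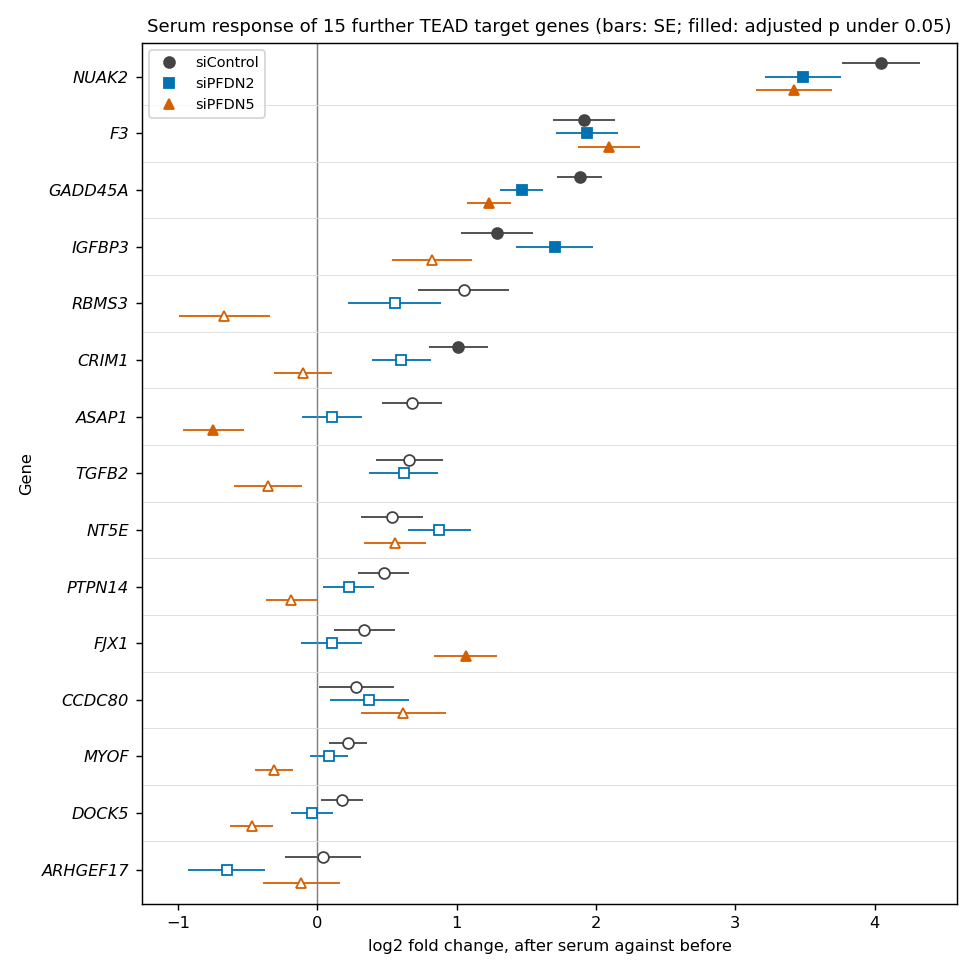
Log2 fold change after serum against before it (x axis) for the 15 tested further TEAD target genes, ordered by the value in siControl, with bars for the SE and filled symbols where the adjusted p was under 0.05. NUAK2, F3 and GADD45A are filled for all 3 siRNAs, and ASAP1 in siPFDN5 is the only filled symbol below 0.

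Few of the kinases and adaptors upstream of YAP were called. Over gene bodies the reported edgeR fit called 0 of 20 such genes in siControl and siPFDN5 and 1 in siPFDN2. Of all genes it called 2.87% in siControl, 12.2% in siPFDN5 and 3.26% in siPFDN2. At an unadjusted p under 0.05 there were 1 in siControl (12.4% of all genes), 4 in siPFDN2 (28%) and 2 in siPFDN5 (30.7%). DESeq2 called 1 in siControl (4.31% of all genes), 3 in siPFDN2 (11.2%) and 1 in siPFDN5 (16.4%). Medians of their log2 fold changes were 0.09, 0.06 and -0.17. Without replicate 2 of siPFDN2 before serum 3 of the 20 were called in siControl, beside 9.95% of all genes, and 8 in siPFDN5, beside 36.3%. Values in siControl were largest for WWC1, an adaptor of LATS also known as KIBRA (0.80, SE 0.22, adjusted p = 0.10), WWC2 (0.42, SE 0.22) and STK3 (0.31, SE 0.26).

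Of 7 paralogues and cofactors of YAP and TEAD, 6 were tested. VGLL3, a cofactor that binds TEAD in the place of YAP, was the only one called over gene bodies in the reported edgeR fit. The starved siControl libraries held 0.66 and 0.71 CPM of it and the serum-treated ones 3.3 and 3.24 CPM. VGLL3 rose by 2.25 (SE 0.32) in siControl, 3.19 (SE 0.35) in siPFDN2 and 2.51 (SE 0.32) in siPFDN5. Of all genes, 2.47%, 2.06% and 5.72% were called higher in these siRNAs. WWTR1, which encodes TAZ, the paralogue of YAP, had log2 fold changes of 0.52 (SE 0.16, adjusted p = 0.13), 0.60 (SE 0.16, adjusted p = 0.065) and 0.12 (SE 0.16, adjusted p = 0.64). In that fit TEAD2, TEAD3, TEAD4 and VGLL4 were not called in any siRNA. DESeq2 also called WWTR1 higher and TEAD3 lower in siPFDN2, where 11.2% of all genes were called. With the GC trend removed WWTR1 was called higher in siControl (6.53% of all genes called) and TEAD3 lower in siPFDN2 (7.47%). In siPFDN5 that setting called TEAD3 and VGLL4 lower, where 28.7% of all genes were called. Without replicate 2 of siPFDN2 before serum WWTR1 was also called higher in siControl (9.95%), and TEAD3 lower in siPFDN5 (36.3%).

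For each of the 10 genes the other genes with the highest Pearson correlation of log2 CPM over the 12 libraries were listed, among 12113 genes with a mean log2 CPM of at least 3. The 12 libraries are 6 groups that share their serum treatment, so these values describe likeness of profile and carry no test. CYR61 was nearest to GADD45B (0.998), NR4A1 (0.998) and AC025259.3 (0.998), and CTGF to ATF3 (0.998), NR4A3 (0.997) and THBS1 (0.996). AMOTL2 was nearest to PPP1R15A (0.995), SRF (0.995) and LIF (0.994), and LATS2 to BHLHE40 (0.994), ING1 (0.990) and BHLHE40-AS1 (0.990). ANKRD1 was nearest to FHL2 (0.961), SELENOK (0.960) and RCAN1 (0.958).

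The genes not called higher over gene bodies in the reported fit had other neighbours. TEAD1 was nearest to EXOC6B (0.983), PTPRG (0.982) and FAT4 (0.979), and YAP1 to TTC13 (0.937), GXYLT1 (0.922) and UBXN7 (0.920). AXL was nearest to PTPRH (0.951), TMEM189 (0.947) and EHD1 (0.947), AMOTL1 to TAF1 (0.947), DSP (0.945) and SORL1 (0.940), and AJUBA to MISP (0.962), PRR7-AS1 (0.961) and NOP14-AS1 (0.961).

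Transcript estimates showed which isoforms carried each gene. A single isoform held 99.6% or more of the estimated counts of LATS2, CYR61, CTGF and ANKRD1. AMOTL2 was split between AMOTL2-201 with 48.7% and AMOTL2-202 with 46.9%, and AMOTL1 between AMOTL1-203 with 73.7% and AMOTL1-202 with 26.2%. YAP1-201 held 56.1% of the estimates of YAP1. Replicate 2 of siPFDN2 before serum lay outside the range of the other 11 libraries in at least 1 isoform of AXL, TEAD1, AJUBA, AMOTL2, YAP1 and LATS2. AXL-202 held 43.6% there against 13.5% to 17.2%, and TEAD1-203 held 68.8% against 84.1% to 87.3%. AJUBA-203 held 2.0% against 12.7% to 18.9%, AMOTL2-202 28.9% against 38.4% to 55.4%, and YAP1-202 3.57% against 8.88% to 17.2%.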

How the data were processed

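Fragment counts over gene bodies and over exons were deposited by the authors as whole-series tables, made with featureCounts 1.5.2 on Ensembl annotation of GRCh38 without a strand option, per the file headers and the submitters' processing notes. They also deposited estimated counts per transcript (expected counts), per the submitters' processing notes from kallisto 0.43, which were rounded and used as an alternative. In each of these, 6 columns matched no sample label and were not used. Groups and replicate numbers came from the labels. The members and lists were chosen with earlier results of these data known.

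Gene-body counts of 27915 genes that passed filterByExpr were fitted in edgeR 4.0.16 (R 4.3.3) with 1 mean for each of the 6 groups and TMM scaling. Intronic counts were fitted likewise, and introns against exons as an interaction in 17390 genes. Across these fits 13 comparisons were tested two-sided by the quasi-likelihood test at an adjusted p under 0.05. FPKM used exon counts and exon length. The common coefficient of variation between replicates was 17.8%. Alternatives were DESeq2 1.42.0, other scalings, no filter, exon counts, transcript estimates, a replicate block, removal of a GC trend (GC known for 99.0% of tested genes), only the groups compared, and each library left out. On simulated counts for the siControl serum response (27271 genes), 103 of 104 genes changed 4-fold and 51 of 96 changed 2-fold were called, as were 8 of 27071 unchanged ones. The changed genes were drawn only from those above a minimum mean count. Their rates do not cover genes with fewer counts, such as ANKRD1. Genes named are the 10, PFDN2 and PFDN5, genes of the lists that were called or had the 4 largest changes in siControl, and the 3 closest profiles to each of the 10. One gene that this rule names is not reported here. Promoter sequences are those of RefSeq on GRCh38.p14, and gene names those of GENCODE 29.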

Additional observations from a re-analysis of the deposited data

Results flagged for a closer look

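In 3 cases the libraries after serum were all above those before it in siControl and all below them in siPFDN5. How many of all tested genes show this pattern was not counted, so the 3 cases have no share to be set against. TEAD1 introns had a log2 fold change of 1.45 in siControl and -0.64 in siPFDN5, a difference of -2.09 that was not tested. AMOTL1 introns had 1.01 in siControl and -0.49 in siPFDN5, a difference of -1.50 that was not tested. Replicate 1 of siControl after serum was high for both, and without it the siControl values were 0.58 and 0.55. YAP1 over the gene body had 0.07 in siControl, where the nearest libraries were at 152.2 and 152.3 CPM, and -0.25 in siPFDN5. Its difference of -0.32 (SE 0.20) was tested as an interaction in edgeR and had an adjusted p of 0.40, and over 22 alternative settings the adjusted p ran from 0.059 to 0.77. In each case the libraries labelled siPFDN5 after serum are those in which PFDN5 was at 95.9% of siControl.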

How the results depend on the processing

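Each value below is the number of the 10 genes called, with the share of all tested genes called in the same fit beside it. For ranges with 1 library left out, the lowest and highest shares need not come from the same fits as the lowest and highest numbers. With only the groups compared it was 2 (0.143%) for the serum response in siPFDN2 (5 in the reported fit), 10 (54.5%) for that in siPFDN5, reported as 5, and 3 (14.9%) for its difference from siControl, reported as 0. For siPFDN5 against siControl it was 5 (19.5%) before serum and 1 (7.81%) after it, both reported as 0. With the GC trend removed it was 9 (28.7%), 2 (6.32%), 1 (0.842%) and 1 (13.3%) for the last 4 of these. DESeq2 gave 2 (1.17%) before and 1 (6.96%) after serum for siPFDN5 against siControl, and no filter 1 (2.13%) and 1 (5.42%). Scaling by library size alone gave 2 (38.7%) for the intronic response in siPFDN2, reported as 5. With 1 library left out, the intronic response in siPFDN5 ran from 3 to 8 (4.78% to 35.9%), reported as 7, and the serum response in siPFDN5 from 5 to 10 (0.857% to 36.3%). The difference of the response ran from 0 to 6 for siPFDN2 (0% to 37.7%) and 0 to 5 for siPFDN5 (0% to 21.8%). Against siControl, siPFDN2 before serum ran from 0 to 8 (0% to 41.8%), siPFDN5 before serum from 0 to 3 (0% to 6.96%) and siPFDN5 after serum from 0 to 1 (0% to 23.9%). The 8 and the 6 arose without replicate 1 of siPFDN2 before serum, which leaves the replicate that stood apart as the only library of its group, assumed to vary like the others. The causes of these changes were not tested.

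Whether equal replicate numbers mark paired libraries is not given by the labels. The correlation of the differences between replicates ran from -0.32 to 0.59 over the pairs of groups, which does not settle it. With a replicate block the intronic response in siControl had 8 calls (7.64%), reported as 9, and the block moved no other count by over 1.5 times. The replicate block with the GC trend removed gave 8 (26.3%) for the serum response in siPFDN5, and 1 (0.283%) before and 1 (8.88%) after serum for siPFDN5 against siControl. Of 2649 alternative values of single genes, 48 lost a call, 99 gained one and 81 uncalled ones changed sign, while 0 called ones did. Depth limits ANKRD1 before serum and the introns of CTGF and CYR61.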
